A study of Mus musculus with 2 samples.

Results

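The 10 genes described here mark dividing cells: Mki67, Top2a, Cdk1, Birc5, Ccnb2, Stmn1, Pcna, Mcm5, Rrm2 and Tyms. They were chosen by symbol and are 10 of the 32285 genes in the deposited matrices. All 10 were found in both libraries, with 30283 unique molecular identifiers (UMIs, 1 per captured transcript) in one library and 15904 in the other. A cell was called cycling when its UMIs of Mki67 and Top2a added to at least 2, and the share of cycling cells was taken in each cell class of each library.

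The libraries are 10x Genomics 3′ single-cell RNA libraries of liver non-parenchymal cells, the cells of the liver other than hepatocytes, from male mice aged 5 months on standard chow with no further treatment. Hep-ADKTg mice overexpress adenosine kinase, the enzyme that turns adenosine into AMP, from the albumin promoter, which is active in hepatocytes. Hep-ADKWT mice are the controls. There is 1 library per group, and the labels do not say whether it holds cells of 1 mouse or of several. No difference between the libraries can therefore be tested against replicate spread, and genotype, animal and library cannot be told apart. The intervals given here are exact 95% intervals that cover counting error only; UMIs of 1 cell are not independent, so intervals on UMI counts are too narrow where a few cells hold most of them.

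After filtering, 12482 and 14449 cells were kept in the libraries labelled Hep-ADKWT and Hep-ADKTg, in which the median depth was 4807 and 2785 UMIs per cell. The libraries share 88 barcodes, of which 58 were kept in both, and without every shared barcode the cycling shares of all kept cells described below were 2.82% and 1.23%. Adk, the overexpressed gene, stood at 469 CPM (447 to 493; CPM is the UMI count of a gene scaled to a common total per class and library) in the 249 hepatocyte-like cells of the Hep-ADKWT library and at 535 CPM (528 to 543) in the 4795 of the Hep-ADKTg library. Hepatocyte-like cells made up 1.99% and 33.2% of kept cells. These shares leave out a cluster of 1294 and 1325 cells that matched hepatocytes best. It got no class name because of low depth and no hepatocyte marker among its leading genes, so the gap depends on the naming rule. Transcripts of hepatocytes were also found in other classes: the estimated hepatocyte share of the UMIs was 1.92% and 11.1% in lymphocyte-like cells.

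Dividing cells copy their DNA in S phase and separate it in mitosis. Pcna, the clamp that holds the polymerase on DNA, Mcm5, a subunit of the replicative helicase, Rrm2, a subunit of ribonucleotide reductase, and Tyms, thymidylate synthase, serve DNA synthesis and are switched on by E2F factors as cells leave G1. Cdk1 and its partner Ccnb2 (cyclin B2) drive entry into mitosis, Top2a untangles sister DNA, Birc5 (survivin) belongs to the chromosomal passenger complex, Mki67 coats mitotic chromosomes, and Stmn1 (stathmin) destabilises microtubules. Genes of the mitotic group are repressed in resting cells by the DREAM complex, which binds a promoter element called CHR, and are induced late in the cycle through B-Myb and FoxM1. In the adult liver most resident cells rest, and immune cells that enter or renew there supply many of the dividing ones.

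In GRCm38 coordinates (GENCODE M21), the DNA synthesis genes lie at chr2:132249162-132253314 (Pcna, minus strand), chr8:75109569-75128439 (Mcm5, plus), chr12:24708241-24714146 (Rrm2, plus) and chr5:30058202-30073617 (Tyms, minus). Mki67 lies at chr7:135689784-135716361 and Cdk1 at chr10:69335146-69352938, both on the minus strand. Top2a is at chr11:98992943-99024189 on the minus strand and Birc5 at chr11:117849251-117855743 on the plus strand. Ccnb2 is at chr9:70407692-70421547 on the minus strand and Stmn1 at chr4:134468320-134473843 on the plus strand. No other gene among the 32285 overlaps any of them in that annotation.

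In monocyte-like cells the mitotic genes were higher in the Hep-ADKTg library and the DNA synthesis genes were not clearly different, as described below. For these groups the promoters of 3 mitotic genes and 1 DNA synthesis gene are shown. They are the 250 bases before the annotated start, from RefSeq (GRCm38.p6), 5′ to 3′ on the strand of the gene, at chr7:135716380-135716629 (Mki67), chr10:69352913-69353162 (Cdk1), chr9:70421555-70421804 (Ccnb2) and chr8:75109259-75109508 (Mcm5). Capitals mark the CHR element TTTGAA, the CCAAT box spelled CCAAT, and matches to any of 3 E2F words. Those words are TTCGCGC, then with other central letters TTGGCGC, and last in the set TTCCCGC. Each was searched on both strands.
Mki67: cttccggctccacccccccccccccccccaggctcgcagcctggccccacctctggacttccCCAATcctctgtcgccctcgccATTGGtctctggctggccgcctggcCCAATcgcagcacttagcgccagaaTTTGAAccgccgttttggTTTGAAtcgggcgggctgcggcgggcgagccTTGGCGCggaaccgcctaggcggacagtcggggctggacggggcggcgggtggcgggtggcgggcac
Cdk1: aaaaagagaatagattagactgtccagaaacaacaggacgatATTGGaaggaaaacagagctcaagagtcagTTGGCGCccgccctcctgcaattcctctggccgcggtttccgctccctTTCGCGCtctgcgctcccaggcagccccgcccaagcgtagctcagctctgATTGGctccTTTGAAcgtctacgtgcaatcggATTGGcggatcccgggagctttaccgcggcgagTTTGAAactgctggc
Ccnb2: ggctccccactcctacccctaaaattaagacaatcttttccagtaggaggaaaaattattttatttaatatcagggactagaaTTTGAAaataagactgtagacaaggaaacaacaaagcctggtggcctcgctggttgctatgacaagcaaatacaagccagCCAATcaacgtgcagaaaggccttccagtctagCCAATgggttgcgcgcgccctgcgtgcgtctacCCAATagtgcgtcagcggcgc
Mcm5: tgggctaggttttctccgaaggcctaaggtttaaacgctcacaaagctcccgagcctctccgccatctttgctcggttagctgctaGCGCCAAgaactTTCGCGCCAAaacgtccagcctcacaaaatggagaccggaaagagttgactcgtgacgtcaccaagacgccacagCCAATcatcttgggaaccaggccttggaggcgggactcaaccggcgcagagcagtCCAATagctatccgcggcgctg

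RefSeq windows of 300 bases, from 250 before to 50 after the start, were matched for 9 of the 10 genes; Stmn1 had no entry. The CHR letters were in 4 of these windows, those of Mki67, Cdk1, Ccnb2 and Top2a, with 2 matches in each, and in 17.9% of all 32851 windows. In Mki67 they began at positions -116 and -98, in Cdk1 at -71 and -15, and in Ccnb2 at -167 and, beyond the bases printed, at 5 after the start. They were in none of the windows of Pcna, Mcm5, Rrm2, Tyms or Birc5. CCAAT was in 7 of the 9 windows and in 37.4% of all windows, with 6 matches in Top2a and 3 each in Mki67, Cdk1, Ccnb2 and Mcm5. An E2F word was in 3 of the 9 (Mki67, Cdk1 and Mcm5) and in 8.07% of all; in Mcm5, 2 of the 3 matches overlap. Birc5, a mitotic gene with a log2 ratio of 0.82 in monocyte-like cells, had no match to CHR, CCAAT or an E2F word. A match is a description of these letters and not a measured binding site, and its link to the ratios was not tested.

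Over all kept cells, 354 of 12482 (2.84%, exact Clopper-Pearson interval 2.55 to 3.14) were cycling in the Hep-ADKWT library and 177 of 14449 (1.23%, 1.05 to 1.42) in the Hep-ADKTg library. The log2 ratio of these shares was -1.21 (-1.48 to -0.95). A call that needs 2 UMIs moves with depth, so each cell was also thinned to a fixed number of UMIs. At 2000 UMIs per cell the shares were 1.26% (132 of 10467 cells) and 1.20% (102 of 8506), a log2 ratio of -0.07 (-0.46 to 0.31), with 2015 and 5943 shallower cells left out. At 1000 UMIs they were 0.711% and 0.631%. The lower share in the library labelled Hep-ADKTg was thus seen at full depth and was not detectable at equal depth. The cells left out at equal depth differed in number and in kind between the libraries. At 2000 UMIs, 154 and 3552 of them were hepatocyte-like, a class in which 3 of 249 and 0 of 4795 cells were cycling at full depth. Depth and cell makeup therefore cannot be told apart in this comparison.

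**Figure D1:**
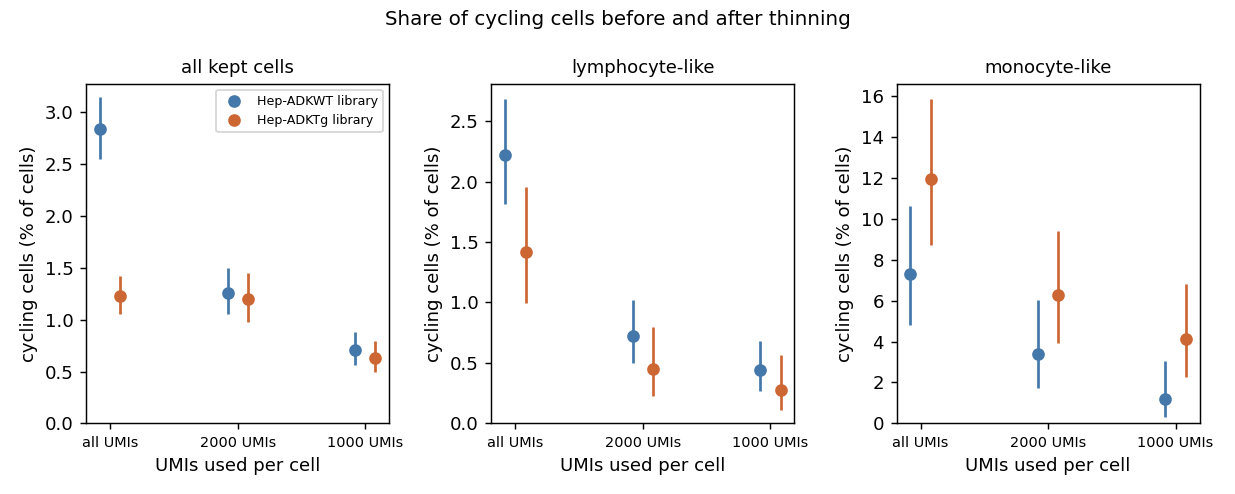
Share of cycling cells (percent of cells, vertical axis) with all UMIs and after thinning each cell to 2000 or 1000 UMIs, for all kept, lymphocyte-like and monocyte-like cells; points are shares and lines exact 95% intervals. In all kept cells the shares of 2.84% and 1.23% became 1.26% and 1.20% at 2000 UMIs, while the monocyte-like share stayed higher in the Hep-ADKTg library at each depth.

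The cells that made up the cycling pool differed. In the Hep-ADKWT library 30.5% of cycling cells were plasma cell-like, 29.1% lymphocyte-like and 7.06% monocyte-like. In the Hep-ADKTg library 1.69% were plasma cell-like, 20.3% lymphocyte-like, 23.2% monocyte-like and 9.04% Kupffer cell-like. Clusters that carried no class name held 25.7% and 31.6%. They include a cluster led by cell-cycle genes, in which 71 of 72 and 48 of 49 cells were cycling, and which carried T cell transcripts (Cd3e in 87.5% and 81.6% of its cells). They also include a cluster with both B and T cell transcripts, in which 99.7% of cells had a UMI of Cd79a and 87.6% one of Cd3e, with 19 of 195 and 7 of 143 cycling. The monocyte-like class is a mixture. At finer resolution, clusters in which markers of type 1 conventional dendritic cells led held 185 and 205, and 9 and 20 cells. A monocyte-led cluster was smaller, with 148 and 120 cells. The class name is kept, and its values describe this mixture. Cycling cells of the class fell mainly in the clusters led by dendritic cell markers (14 and 20 cells, and 8 and 20). The monocyte-led cluster held 3 and 1.

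Mature neutrophils do not divide, and their share is 1 reference for the background of the call. Cycling cells were 3 of 322 neutrophil-like cells (0.932%, 0.193 to 2.70) in the Hep-ADKWT library and 2 of 197 (1.02%, 0.123 to 3.62) in the Hep-ADKTg library, at median depths of 2703 and 2279 UMIs. Of the 158 member UMIs in the neutrophil-like cells of the Hep-ADKWT library, 110 came from 1 cell. Shares below this reference, or with intervals that overlap it, were found in B cell-like cells with 2 of 2045 and 4 of 1236, plasmacytoid dendritic cell-like (pDC-like) cells with 3 of 402 and 2 of 145, erythroid cell-like cells with 5 of 472 and 1 of 242, and hepatocyte-like cells with 3 of 249 and 0 of 4795 (exact interval up to 0.0769%), so the level in neutrophil-like cells is no floor common to all classes. The share in lymphocyte-like cells of the Hep-ADKTg library, 1.41%, lies within the neutrophil-like interval, and that of the Hep-ADKWT library, 2.22% (1.81 to 2.68), overlaps it. Intervals of Kupffer cell-like cells of the Hep-ADKWT library (2.40 to 13.5) and plasma cell-like cells of the Hep-ADKTg library (1.14 to 15.1) overlap the neutrophil-like ones too.

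**Figure D2:**
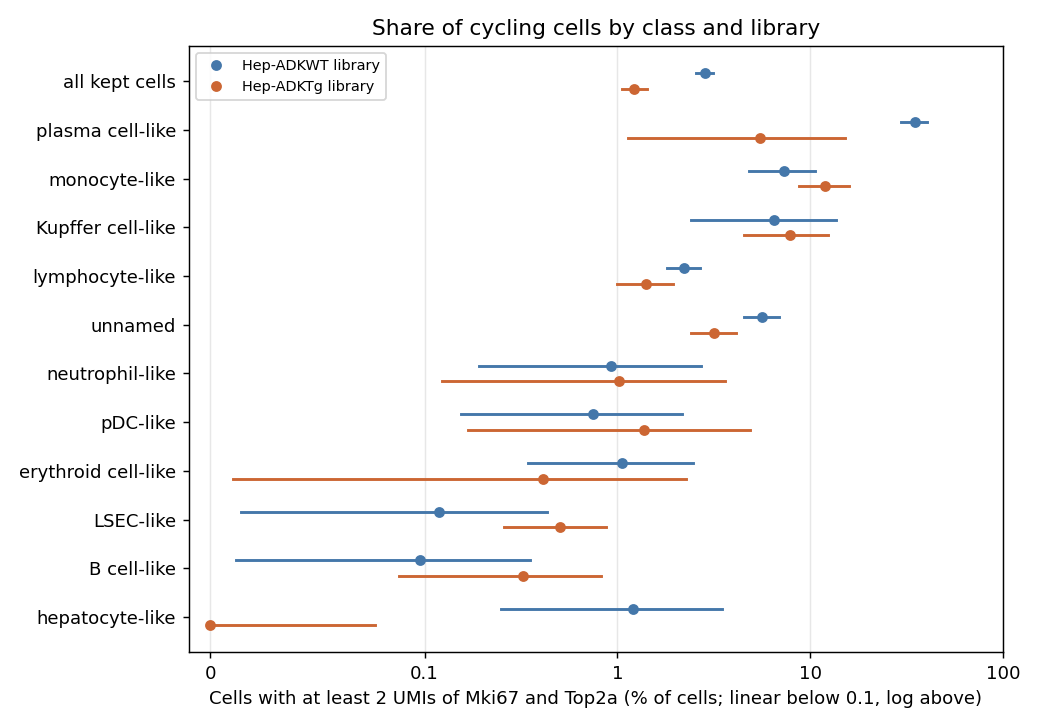
Share of cycling cells (percent, horizontal axis, linear below 0.1 and logarithmic above) in each class and library; points are shares and lines exact 95% intervals. Plasma cell-like (34.7% in the Hep-ADKWT library), monocyte-like, Kupffer cell-like and lymphocyte-like cells stand above the neutrophil-like share of 0.932% and 1.02%, while LSEC-like, B cell-like and hepatocyte-like cells of the Hep-ADKTg library stand below it. Lymphocyte-like intervals overlap the neutrophil-like ones in both libraries. Those of Kupffer cell-like cells overlap them in the Hep-ADKWT library and those of plasma cell-like cells in the Hep-ADKTg library.

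Summed over the 10 genes, the level among named classes was highest in Kupffer cell-like and monocyte-like cells of the Hep-ADKTg library and in monocyte-like and plasma cell-like cells of the Hep-ADKWT library, as the map of levels by class shows. It stood at 453 CPM (393 to 519) and 1196 CPM (1118 to 1279) in Kupffer cell-like cells of the Hep-ADKWT and Hep-ADKTg libraries, and at 565 CPM (544 to 588) and 873 CPM (843 to 903) in monocyte-like cells. Plasma cell-like cells had 537 and 90.3 CPM, lymphocyte-like cells 251 and 188 CPM, and cells like the liver sinusoidal endothelium (LSEC-like) 130 and 186 CPM. Cholangiocyte-like cells, only 35 and 99 in number and not in the map, stood at 290 and 240 CPM, most of it Stmn1 and Pcna, and the clusters without a class name at 1474 and 836 CPM. B cell-like cells (117 and 90.3 CPM), pDC-like cells (101 and 90.0 CPM), erythroid cell-like cells (77.4 and 37.5 CPM) and hepatocyte-like cells (56.9 and 34.3 CPM) were lower. The intervals of neighbours in this order overlapped in the Hep-ADKTg library for plasma cell-like, B cell-like, pDC-like and neutrophil-like cells (76.8 CPM), and those of lymphocyte-like and LSEC-like cells overlapped there too. Among the named classes of the Hep-ADKWT library, Mki67, Top2a, Cdk1, Birc5, Ccnb2 and Rrm2 were each highest in plasma cell-like cells, Stmn1 in monocyte-like cells, and Pcna, Mcm5 and Tyms in Kupffer cell-like cells. Among those of the Hep-ADKTg library, Top2a and Rrm2 were highest in monocyte-like cells and the other 8 in Kupffer cell-like cells.

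**Figure D3:**
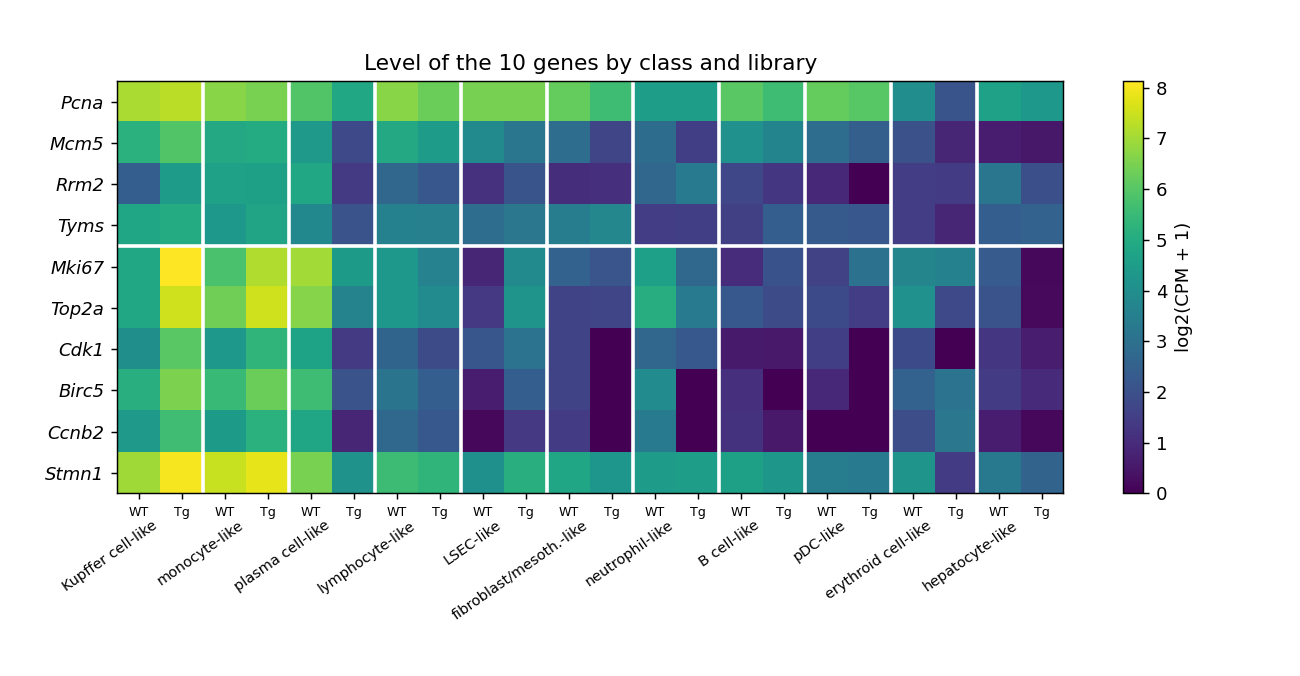
Level of each gene (rows; DNA synthesis genes above the line, mitotic genes below) in each class of the Hep-ADKWT (WT) and Hep-ADKTg (Tg) libraries, as log2(CPM + 1) in colour. Kupffer cell-like and monocyte-like cells of the Hep-ADKTg library are brightest for Mki67 and Top2a, and Pcna is seen in every class.

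Monocyte-like cells, with 342 and 344 cells, had a cycling share of 7.31% (25 cells, 4.79 to 10.6) in the Hep-ADKWT library and 11.9% (41 cells, 8.69 to 15.8) in the Hep-ADKTg library. The log2 ratio was 0.71 with an interval that includes 0 (-0.05 to 1.48). At 2000 UMIs per cell the shares were 3.41% and 6.25%, and at 1000 UMIs 1.19% and 4.12%. Lyz2, Chil3 and F13a1 were among its leading genes, and so was Naaa, which dendritic cells express. When clustered at finer resolution, cycling cells were 3 of 148 and 1 of 120 in a monocyte-led cluster and 14 of 185 and 20 of 205 in a cluster led by antigen presentation genes, in which markers of type 1 conventional dendritic cells (cDC1) were enriched. A further cluster led by Top2a, histone genes and Xcr1, the chemokine receptor of cDC1, held 9 and 20 cells, of which 8 and 20 were cycling. Log2 ratios of the shares in these cDC1-led clusters were 0.37 (-0.69 to 1.46) and 0.17 (-1.08 to 1.56). In the monocyte-led cluster the ratio was -1.28 (-7.00 to 2.36). Each of these intervals included 0. Defined instead by a UMI in at least 3 of the 8 genes not used in the call, the dividing share of the whole class was 14.9% (51 cells) and 15.7% (54 cells), a log2 ratio of 0.07.

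Genes of cDC1 were higher in cycling than in other monocyte-like cells of both libraries. Xcr1 stood at 226 CPM in cycling and 44.9 CPM in other cells of the Hep-ADKWT library, and at 287 and 161 CPM in the Hep-ADKTg library. Wdfy4, needed for cross-presentation by cDC1, stood at 233 against 101 CPM and at 351 against 185 CPM. The monocyte genes Chil3 and F13a1 went the other way: Chil3 at 128 against 582 CPM and at 3.65 (3 UMIs) against 722 CPM, F13a1 at 117 against 259 CPM and at 96.2 against 210 CPM. Cd209a and Clec10a, genes of other dendritic cells, were lower in cycling cells too: Cd209a at 39.4 against 107 CPM and at 42.6 against 123 CPM, Clec10a at 0 UMIs against 51.8 CPM and at 11.0 against 41.0 CPM. At an equal 2000 UMIs per cell, Xcr1 was seen in 24.0% of cycling and 4.03% of other cells in the Hep-ADKWT library, and in 34.1% and 12.5% in the Hep-ADKTg library.

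In monocyte-like cells the 6 mitotic genes were higher in the Hep-ADKTg library, and the 4 DNA synthesis genes had ratios with intervals that include 0. Mki67 stood at 54.0 CPM (47.5 to 61.1; 248 UMIs) and 142 CPM (130 to 154; 528 UMIs), a log2 ratio of 1.39. Top2a stood at 81.4 and 184 CPM (log2 ratio 1.18) and Cdk1 at 19.2 and 38.9 CPM (1.02). The intervals of these genes did not overlap between the libraries. Birc5, at 44.0 and 77.9 CPM, had a log2 ratio of 0.82, Ccnb2, at 20.7 and 35.4 CPM, one of 0.78, and Stmn1, at 172 and 225 CPM, one of 0.38, which was -0.05 as a mean over cells and -0.15 at 1000 UMIs per cell. Pcna stood at 101 and 89.7 CPM (log2 ratio -0.18, -0.38 to 0.03) and Mcm5 at 29.2 and 30.9 CPM (0.08, -0.29 to 0.45). Rrm2 stood at 24.2 and 23.6 CPM (-0.03, -0.45 to 0.38) and Tyms at 19.2 and 25.8 CPM (0.43, upper bound 0.86), a ratio above that of Stmn1. Scaling by TMM factors moves the median of all genes by 0.04 in this class and puts Rrm2 at 0.01, with the other 9 genes on the same side of 0.

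Of the 10 genes, 3 were at least 2-fold higher in the Hep-ADKTg monocyte-like cells, against 4.35% of the 9268 genes with at least 50 UMIs, and 0 were 2-fold lower, against 2.62%. Other genes of the same phases followed the members. Among genes of a list of other G2 and M phase genes, 46 of the 47 with at least 50 UMIs were higher, 17 of them at least 2-fold, with a median log2 ratio of 0.90; over all genes tested the median was -0.05. Cenpe, a kinetochore motor, stood at 8.27 and 43.2 CPM (log2 ratio 2.39), Aurka, a spindle kinase, at 4.35 and 15.8 CPM (1.86) and Ckap2l at 5.44 and 18.3 CPM (1.75), while Lbr, a lamin receptor, stood at 91.2 and 78.7 CPM (-0.21). Hmgb2, the most abundant of the list, stood at 611 and 902 CPM (0.56). Among other S phase genes, 25 of 39 were higher and 0 at least 2-fold, with a median of 0.19: Slbp, which binds histone mRNA, stood at 68.3 and 78.1 CPM (0.19), Clspn, a checkpoint adaptor, at 11.3 and 19.9 CPM (0.81) and Mcm2 at 19.6 and 13.2 CPM (-0.57).

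Of 19 cyclin, kinase, E2F and DREAM genes, 1 was 2-fold higher and 1 was 2-fold lower. Foxm1, an activator of mitotic genes, stood at 2.83 and 9.93 CPM (log2 ratio 1.81, 13 and 37 UMIs), and Ccnd2, a D-type cyclin, at 225 and 106 CPM (-1.09). Ccnd1 stood at 192 and 260 CPM (0.44). Among 10 inhibitors and quiescence genes, 8 were lower, against 5265 of all 9268 genes tested, and 0 were past 2-fold. Btg1, an anti-proliferative gene, stood at 797 and 538 CPM (-0.57). Markers of other cells moved with this comparison: all 10 T cell markers were lower in the monocyte-like cells of the Hep-ADKTg library (summed 919 and 365 CPM) and all 10 hepatocyte markers were higher (summed 1179 and 4689 CPM). None of these markers was at 0 in either library. Xcr1 was seen in 9.65% of the monocyte-like cells of the Hep-ADKWT library and in 24.7% of those of the Hep-ADKTg library, and its part in the result was not tested. Among cells without a UMI of Cd3d, Cd3e, Cd3g or Trac the cycling shares were 4.93% (11 of 223) and 11.2% (32 of 285). Without the 5 cells that held most member UMIs in each library, the log2 ratio was 1.78 for Mki67 and 1.58 for Top2a.

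**Figure D4:**
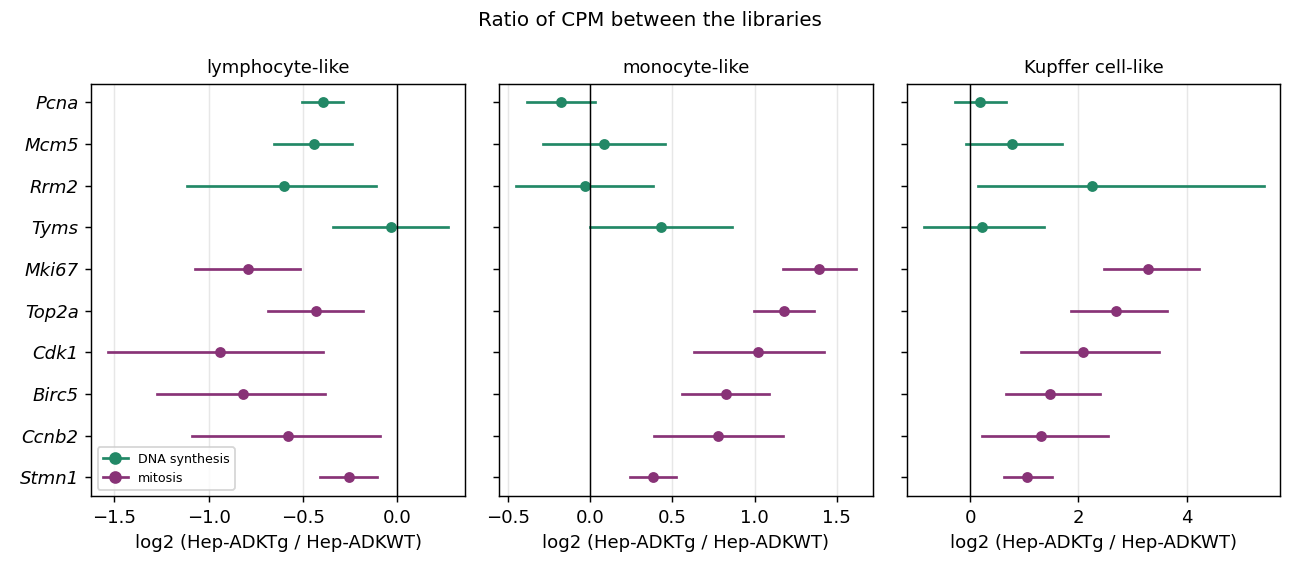
Ratio of CPM between the libraries for each gene (log2, Hep-ADKTg over Hep-ADKWT, horizontal axes with different ranges) in lymphocyte-like, monocyte-like and Kupffer cell-like cells; points are ratios and lines exact 95% intervals for counting error. All 10 are below 0 in lymphocyte-like cells (Tyms at -0.03, and at 0.05 under TMM scaling), though Mki67 stood at 0.20 and 4 more were above 0 when histone and follower genes were left out of the clustering, and in monocyte-like cells the mitotic genes lie from 0.38 to 1.39 while the DNA synthesis genes lie from -0.18 to 0.43 with intervals that include 0.

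Kupffer cell-like cells were few, with 93 and 205 cells. They were led by C1qa, C1qb and C1qc, and Clec4f, the defining Kupffer cell gene, was seen in 12.6% and 13.2% of the cells that were not cycling, so the name rests mainly on complement genes. The Kupffer cell markers Vsig4, Timd4 and Cd5l were seen in 3.45% to 20.1% of those cells, and Cx3cr1 in 57.5% and 32.3%. Whether the class holds resident macrophages was not settled. Their cycling shares were 6.45% (6 cells, 2.40 to 13.5) and 7.80% (16 cells, 4.53 to 12.4), a log2 ratio of 0.27 (-1.15 to 1.92). At 2000 UMIs per cell the shares were 4% (2 of 50) and 13.7% (13 of 95). By a UMI in at least 3 of the 8 other genes they were 11.8% (11 cells) and 10.7% (22 cells). Among the cycling cells C1qa was seen in 5 of 6 and 16 of 16, Cx3cr1 in 3 of 6 and 14 of 16, and Clec4f in 0 of 6 and 2 of 16.

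The mitotic genes were higher in Kupffer cell-like cells of the Hep-ADKTg library. Mki67 stood at 28.6 CPM (15.2 to 48.8; 13 UMIs) and 279 CPM (242 to 320; 200 UMIs), a log2 ratio of 3.29. Top2a stood at 28.6 and 184 CPM (2.69), Cdk1 at 15.4 and 65.5 CPM (2.09), Birc5 at 33.0 and 92.0 CPM (1.48), Ccnb2 at 19.8 and 48.8 CPM (1.30) and Stmn1 at 125 and 261 CPM (1.06). Of the DNA synthesis genes, Pcna stood at 136 and 155 CPM (0.18), Mcm5 at 35.2 and 60.0 CPM (0.77), Tyms at 26.4 and 30.7 CPM (0.22) and Rrm2, with 2 and 15 UMIs, at 4.39 and 20.9 CPM (2.25, 0.15 to 5.42). With at least 50 UMIs, 7 of the 10 genes could be compared and 5 were at least 2-fold higher, against 7.71% of 3582 genes, and 0 were 2-fold lower, against 2.15%. Of the other G2 and M phase genes, 16 of 17 were higher, against 1885 of all 3582 genes tested. At least 2-fold higher were 10, among them Cenpf (6.59 and 116 CPM), Nusap1 (4.39 and 68.3 CPM) and Prc1 (13.2 and 87.9 CPM).

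Few cells carried these transcripts. Of the 200 Mki67 UMIs in the Hep-ADKTg library, 140 came from 5 cells and 45 from 1 cell, and 28 of 205 cells had any. Without the 5 cells with most member UMIs in each library, Mki67 stood at 7.23 CPM (3 UMIs) and 151 CPM (99 UMIs). As a mean over cells, in which each cell counts equally, the log2 ratio was -0.67 for Birc5, -0.61 for Ccnb2, -0.49 for Mcm5 and -1.16 for Tyms. All 10 T cell markers were lower in the Hep-ADKTg library (summed 1026 and 400 CPM), all 10 hepatocyte markers were higher (summed 1837 and 12061 CPM), none was at 0, and their part in the result was not tested.

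Lymphocyte-like cells, the T, NK and innate lymphoid cells as 1 class, had 103 of 4648 (2.22%, 1.81 to 2.68) cycling cells in the Hep-ADKWT library and 36 of 2545 (1.41%, 0.993 to 1.95) in the Hep-ADKTg library, a log2 ratio of -0.65 (-1.24 to -0.09). At 2000 UMIs per cell the shares were 0.725% and 0.446%, a ratio of -0.70 with an interval that includes 0 (-1.84 to 0.33). Most cells of the cluster led by cell-cycle genes joined this class (59 of 72 and 42 of 49) when 822 histone genes and genes that follow the members were also left out of the clustering. The shares then were 3.43% (162 of 4717) and 2.86% (79 of 2766), a ratio of -0.27 (-0.67 to 0.13), and at 2000 UMIs per cell 1.83% and 1.87%. This clustering also brought other cells into the class, which had 4648 and 2545 cells before.

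The largest cluster of the class differed between the libraries: a T cell cluster of 1367 and 9 cells, in which 44 and 4 were cycling, and one of 240 and 1812 cells, in which 2 and 24 were. An NK cell-led cluster of 511 and 14 cells held 20 and 0 cycling cells. Such splits by library were not particular to lymphocytes. B cell-like clusters held 1504 and 8, and 149 and 1227 cells, and LSEC-like clusters 1130 and 43, and 81 and 1295. Cycling counts of single clusters therefore cannot be compared between the libraries. Sorted by transcripts, 33 of 866 (3.81%) and 8 of 447 (1.79%) cells with a UMI of Cd8b1 were cycling, 37 of 1011 (3.66%) and 12 of 468 (2.56%) with one of Cd4, and 12 of 533 (2.25%) and 1 of 184 (0.543%) with one of Ncr1, the NK receptor NKp46. Each interval of these ratios included 0.

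All 10 genes were lower in lymphocyte-like cells of the Hep-ADKTg library in CPM, and 9 were under TMM scaling, where Tyms stood at 0.05 on the log2 scale. These directions depended on which cells the class held: with histone and follower genes also left out of the clustering, Mki67 stood at 0.20, Birc5 at 0.13, Tyms at 0.09, Top2a at 0.03 and Stmn1 at 0.03, and with cell-cycle genes used in clustering Ccnb2 stood at 0.41 and Top2a at 0.03. Clusters without a class name, which enter no ratio, held 1469 and 850 UMIs of Mki67, against 559 and 135 in this class. Mki67 stood at 19.2 CPM (17.6 to 20.8) and 11.1 CPM (9.30 to 13.1), a log2 ratio of -0.79, and Top2a at 19.2 and 14.2 CPM (-0.43). Cdk1, with 152 and 33 UMIs, stood at 5.21 and 2.71 CPM (-0.94), Birc5 at 7.82 and 4.44 CPM (-0.82) and Ccnb2 at 5.52 and 3.70 CPM (-0.58). Stmn1 stood at 46.7 and 39.1 CPM (-0.26). Among the DNA synthesis genes Pcna stood at 102 and 77.8 CPM (-0.40), Mcm5 at 28.7 and 21.1 CPM (-0.44), Rrm2 at 5.49 and 3.62 CPM (-0.60) and Tyms at 10.8 and 10.6 CPM (-0.03, -0.34 to 0.27). Their median log2 ratio was -0.51, against -0.10 over all genes tested. Of the 10 genes 0 were 2-fold lower, against 1.21% of 11603 genes, and 0 were 2-fold higher, against 6.61%.

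Most other cell-cycle genes were lower as well, in a class in which 7623 of all 11603 genes were. Of the other G2 and M phase genes 38 of 45 were lower, 4 of them 2-fold, with a median of -0.42: Aurkb, a kinase of the passenger complex, stood at 2.19 and 0.904 CPM (-1.28) and Cdca2 at 2.19 and 0.822 CPM (-1.42), while Cenpe stood at 4.08 and 4.68 CPM (0.20). Of the other S phase genes 35 of 45 were lower and 1 was 2-fold lower, with a median of -0.17, near the -0.10 of all genes. Slbp stood at 114 and 117 CPM (0.03) and Dut, which clears dUTP, at 61.3 and 60.9 CPM (-0.01). Myc stood at 30.5 and 22.4 CPM (-0.44), and Tob1, an anti-proliferative gene, at 20.5 and 30.3 CPM (0.56). Hepatocyte markers were higher here too, all 10 of them (summed 1680 and 8950 CPM), and their part was not tested. TMM scaling moves the median of all genes by 0.08 in this class.

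Plasma cell-like cells had the highest cycling share of the Hep-ADKWT library, 108 of 311 cells (34.7%, 29.4 to 40.3), and 3 of 55 (5.45%, 1.14 to 15.1) in the Hep-ADKTg library. With fewer than 75 cells in the second library, no ratio was taken. These cells were the deepest, at a median of 28024 and 22510 UMIs, and at 2000 UMIs per cell the shares were 7.07% (22 of 311) and 1.85% (1 of 54). Mki67 stood at 126 CPM (119 to 134; 1171 UMIs) and 20.3 CPM (25 UMIs), Top2a at 101 and 11.4 CPM, Birc5 at 47.7 and 3.25 CPM and Pcna at 60.0 and 28.5 CPM. All 10 genes were lower in the Hep-ADKTg library, where 1 cell held 60 of the 111 member UMIs. How many of all genes were lower in this class was not counted, so this direction cannot be called particular to the members.

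T cell transcripts ran with this class. Cd3e was seen in 63.0% and 40.0% of its cells, and in 75% of cycling and 56.7% of other cells of the Hep-ADKWT library; at 2000 UMIs per cell the latter were 22.2% and 20.2%. Among cells with no UMI of the T cell receptor complex, 21 of 98 (21.4%) and 1 of 30 (3.33%) were cycling, and among those with one, 87 of 213 (40.8%) and 2 of 25 (8%). Igha stood at 50606 CPM in cycling and 67867 CPM in other plasma cell-like cells of the Hep-ADKWT library, and Jchain, which joins IgA and IgM, was seen in every one of both.

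LSEC-like cells had cycling shares below the neutrophil-like ones, 2 of 1682 (0.119%, 0.0144 to 0.429) and 12 of 2393 (0.501%, 0.259 to 0.874). The log2 ratio of 2.08 had an interval that includes 0 (-0.09 to 5.28), and by at least 3 of the 8 other genes the shares were 0.773% and 0.794%. Of the 12 cells, 11 had a UMI of Stab2, 11 of Clec4g and 1 of Ptprc, the pan-leukocyte gene CD45. They held 83 of the 88 Mki67 UMIs and 107 of the 116 Top2a UMIs of the class in the Hep-ADKTg library. By the rule of the call any other cell can hold at most 1 of these UMIs, so this concentration is partly set in advance. The whole class of the Hep-ADKWT library held 6 and 11 UMIs of these genes. With at least 50 UMIs, 4 of 7 members were at least 2-fold higher, against 5.78% of 10757 genes, and 0 were 2-fold lower, against 1.18%. With doublets kept, the log2 ratio was -0.86 for Mki67, -1.03 for Top2a and -1.32 for Stmn1, and with cell-cycle genes used in clustering it was -0.32 for Cdk1. Pcna, seen in 27.1% and 17.5% of the cells, stood at 86.2 and 87.1 CPM, and Mcm5 at 13.9 and 8.07 CPM. At 2000 UMIs per cell the cycling shares were 0 of 1172 (exact interval up to 0.314%) and 9 of 1284 (0.701%, 0.321 to 1.33). Scaling by TMM factors moved the median of all genes in this class by 0.12 on the log2 scale. All 10 hepatocyte markers were higher in the Hep-ADKTg library (summed 2182 and 13160 CPM), and their part was not tested. With doublets kept, the clusters changed and the share was 0.966% (8 of 828) and 0.486% (12 of 2468).

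In the other classes few members reached 50 UMIs. In B cell-like cells 3 did, all lower in the Hep-ADKTg library, as were 6363 of all 9395 genes tested. Of these members 0 were past 2-fold (6.71% of all genes were 2-fold higher and 1.19% lower). Stmn1 stood at 23.6 and 18.8 CPM, Pcna at 65.4 and 47.2 CPM and Mcm5 at 16.3 and 11.8 CPM. In pDC-like cells Stmn1, with 42 and 10 UMIs, and Pcna, at 73.1 and 63.9 CPM, did, with 0 past 2-fold (2.82% higher and 3.89% lower of 8074 genes). Among fibroblast-like or mesothelial-like cells the same pair stood at 26.8 and 18.2 CPM and at 72.8 and 47.9 CPM, with 0 past 2-fold (3.35% higher and 2.99% lower of 7622 genes). These are the members seen in resting cells as well, and the genes of the cycling call were rare in these classes.

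In hepatocyte-like cells 4 members could be compared and 1 was 2-fold lower in the Hep-ADKTg library, Rrm2 at 8.17 and 2.97 CPM, with 0 higher (2.20% higher and 2.83% lower of 10369 genes). Pcna stood there at 23.9 and 19.1 CPM. In erythroid cell-like cells 3 of 4 were 2-fold lower and 0 higher, among them Top2a at 16.3 and 2.50 CPM, where 51.8% of the 2730 genes were 2-fold lower and 9.82% higher, so the members' share stands beside a class in which most genes were lower. In neutrophil-like cells 0 members reached 50 UMIs (6.50% higher and 4.59% lower of 3616 genes).

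Within a class, the genes not used in the call stood at higher CPM in cycling than in other cells of both libraries. Many cycling lymphocyte-like cells lacked them: Birc5 was seen in 30.1% and 27.8%. At least 3 of the 8 were seen in 53.4% and 52.8% of cycling lymphocyte-like cells, and in 96.0% and 87.8% of monocyte-like ones. Cycling lymphocyte-like cells were also deeper than the others, at median UMIs of 10179 against 5525 and 7337 against 4322. In lymphocyte-like cells of the Hep-ADKWT library, Birc5 stood at 166 CPM in cycling and 0.966 CPM in other cells, Ccnb2 at 111 and 0.930 CPM, Mcm5 at 130 and 24.3 CPM and Rrm2 at 72.5 and 2.58 CPM. In the Hep-ADKTg library Birc5 stood at 139 and 0.508 CPM and Cdk1 at 49.3 and 1.35 CPM. Pcna differed least, at 304 and 93.6 CPM in the Hep-ADKWT library and 273 and 72.1 CPM in the Hep-ADKTg library, and it was seen in 38.3% and 26.1% of the cells that were not cycling. In monocyte-like cells Stmn1 stood at 981 and 42.9 CPM and at 892 and 36.2 CPM, and Birc5 at 300 and 3.03 CPM and at 336 and 4.82 CPM.

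**Figure D5:**
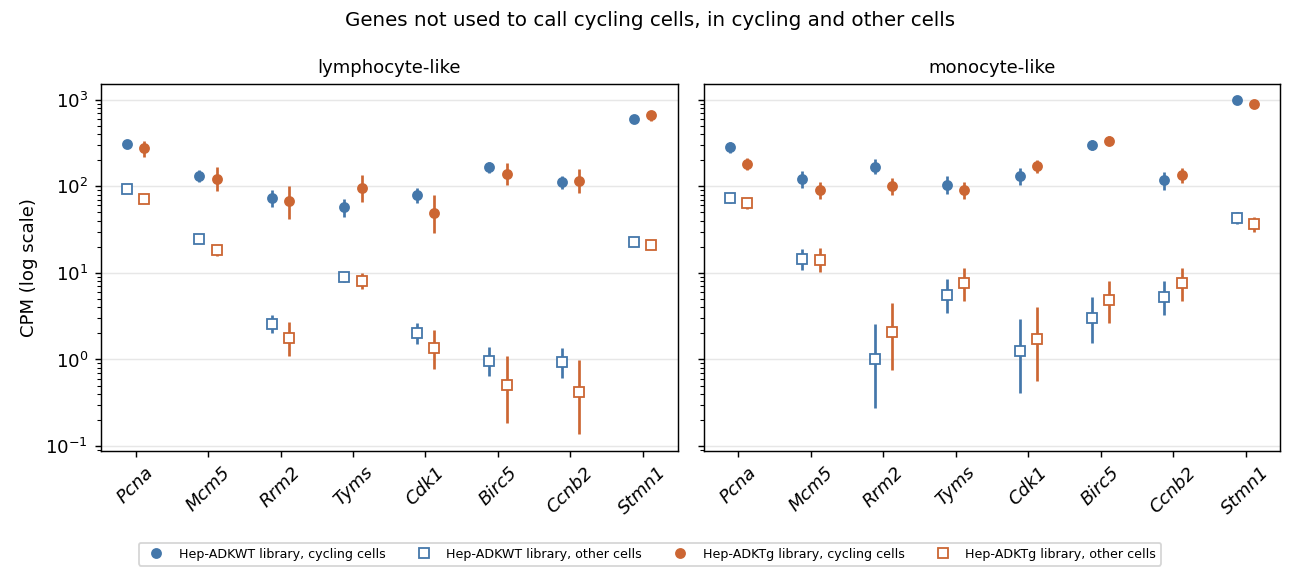
Level of the 8 genes not used in the call (CPM, logarithmic axis) in cycling (filled) and other cells (open) of the lymphocyte-like and monocyte-like classes, by library; lines are exact 95% intervals for counting error. Cycling cells lie above other cells for each gene in both libraries, by least for Pcna (304 against 93.6 CPM in lymphocyte-like cells of the Hep-ADKWT library).

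Among cycling monocyte-like cells, Pcna (281 and 183 CPM) and Rrm2 (169 and 99.9 CPM) were lower in those of the Hep-ADKTg library. Mcm5 (121 and 90.1 CPM), Tyms (104 and 90.1 CPM) and Stmn1 (981 and 892 CPM) had intervals that overlapped. Mki67 and Top2a, which define the cells, stood at 375 and 627 CPM and at 577 and 820 CPM. Cdk1 stood at 131 and 171 CPM and Ccnb2 at 117 and 134 CPM. Counting cells, 84.0% of 25 and 82.9% of 41 had UMIs of both groups (at least 1 DNA synthesis gene and at least 1 of Cdk1, Birc5 and Ccnb2). In cycling lymphocyte-like cells these were 32.0% of 103 and 33.3% of 36, and DNA synthesis genes alone were seen in 46.6% and 25%. These shares of cells move with depth. The lymphocyte-like ones also leave out the cluster led by cell-cycle genes, which carried T cell transcripts and held 71 and 48 cycling cells. They therefore do not describe all cycling lymphocytes.

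Of the other S phase genes, 24 of 39 were at least 2-fold higher in cycling lymphocyte-like cells of both libraries, and of the other G2 and M phase genes 24 of 33. In monocyte-like cells these were 27 of 39 and 40 of 43. Over all genes with at least 25 UMIs in each library, 1.34% and 1.73% were 2-fold higher in cycling lymphocyte-like cells and 2.95% and 2.94% in cycling monocyte-like cells. Outside the lists, the leading genes in lymphocyte-like cells were Lmnb1, the B-type lamin (216 against 25.6 CPM and 168 against 23.8 CPM), Spc24, of the kinetochore (76.6 against 3.15 CPM and 87.1 against 4.23 CPM), and Ezh2, the H3K27 methyltransferase (112 against 16.7 CPM and 125 against 22.2 CPM). In monocyte-like cells they were mostly replication-dependent histone genes, led by Hist1h2ap (929 against 18.4 CPM and 520 against 11.0 CPM) and Hist1h2ae (590 against 15.7 CPM and 638 against 15.8 CPM). Spc24, Tuba1b and Smc2 were among the leading genes of both classes. The cluster led by cell-cycle genes, which carried T cell transcripts, had Hist1h2ap and Hist1h2ae among its leading genes. It is not in the lymphocyte-like class, so the classes cannot be compared on histone genes.

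Cycle regulators behaved less uniformly. In cycling lymphocyte-like cells E2f1 stood at 40.4 against 2.11 CPM and 29.0 against 2.62 CPM, and Cdk4 at 158 against 91.9 CPM and 148 against 77.1 CPM. Ccnd3 stood at 274 against 290 CPM and 270 against 274 CPM. The quiescence gene Btg1 was lower in cycling cells, at 690 against 1129 CPM and 583 against 1098 CPM, as was Il7r, the IL-7 receptor, at 265 against 525 CPM and 293 against 654 CPM. Cxcr6, which retains lymphocytes in the liver, stood at 369 against 577 CPM and 221 against 442 CPM. Gzmk, a granzyme of activated T cells, was higher, at 34.6 against 14.0 CPM and 46.4 against 10.3 CPM. Gzma differed in direction between the libraries, at 1101 against 583 CPM and 43.5 against 409 CPM, with UMIs in 19.4% and 11.1% of cycling cells.

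Across 20 class-by-library points, each of at least 75 cells, the gene outside the lists whose log2(CPM + 10) was most like that of the 10 genes summed was Fignl1 (Pearson r = 0.95), followed by Chaf1a (0.95), Incenp (0.95), Bub1b (0.93) and Fbxo5 (0.92), of 13180 genes compared. Among the 50 most alike, 22 were in the cell-cycle lists, 4 of them members. Stmn1 ranked highest of the members (0.97), and Pcna (0.79) and Rrm2 (0.74) lowest. Each member is itself part of the sum, so the ranks of members are partly set in advance. The points share libraries and depth, and the correlation is a description only.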

How the data were processed

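The deposited matrices hold UMI counts of whole numbers per gene and barcode, 1 library per group. They were written by Cell Ranger 5.0.1 per the file headers, while the submitters' processing notes name Cell Ranger 6.1.2, with Seurat 4.0.2 in R 4.1.0 and GRCm38; the difference is not resolved by the sources used here. No source used here names the annotation behind the counts. The series' design text names SoupX for free RNA; whether these counts come from before or after it is not recorded in the files, and they were used as raw counts with no further correction. Totals were 97135016 UMIs over 15663 barcodes (Hep-ADKWT) and 96481752 over 17462 (Hep-ADKTg).

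Barcodes with at least 500 UMIs, 200 genes and at most 20% mitochondrial UMIs were kept. Scrublet's automatic threshold marked 0 doublets in each library, so barcodes with a score above 0.2 were removed (479 and 404). Cells were clustered in scanpy 1.11.5 on 2000 variable genes, without the 10 members and the cell-cycle lists (30 components, 15 neighbours, Leiden resolution 1), into 37 clusters. A cluster was called like a cell type when at least 3 of its markers were enriched, those of an unrelated type were not, and it was neither led by cell-cycle genes nor of low depth without a marker among its leading genes; this naming rule was set after the data were seen. T and NK cells were joined as lymphocyte-like. The hepatocyte share of UMIs was estimated from 29 hepatocyte transcripts, relative to their share in hepatocyte-like cells of the same library.

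UMIs were summed per class and library and given as CPM with exact Poisson intervals, shares with exact Clopper-Pearson intervals, and ratios with exact conditional binomial intervals. Ratios of shares needed 75 cells in each library and 10 cycling cells over both. Genes were compared between libraries with at least 50 UMIs over both, and between cycling and other cells with at least 25 UMIs in each library. Cells were thinned to 1000 or 2000 UMIs. No p-value is given. The files hold no depth per molecule beyond the UMI totals, and intervals cover counting error only.

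The 10 members and the gene lists were chosen with earlier results of these data known. All members are named in each comparison; of other lists, the 3 genes with most UMIs and the 3 highest and 3 lowest ratios could be named, and some are. The dendritic, monocyte, T and plasma cell genes given beside cycling cells were chosen to show which cells these are. Alternatives were edgeR 4.0.16 TMM factors, DESeq2 1.42.0 size factors, other filters, resolutions, call rules and cell subsets; edgeR and DESeq2 were used for scaling only. The scripts were tested on simulated data.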

Additional observations from a re-analysis of the deposited data

Results flagged for a closer look

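The barcodes removed for a doublet score above 0.2 are in none of the comparisons as reported and enter only the alternative that keeps them. Of the 479 removed from the Hep-ADKWT library, 21 (4.38%, 2.73 to 6.62) met the cycling call, against 2.84% of kept cells, and of the 404 removed from the Hep-ADKTg library 2 (0.495%) did, against 1.23%. With these barcodes kept, the shares of all cells were 2.89% and 1.21%.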

How the results depend on the processing

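Of the log2 ratios of cycling shares under alternatives, 59 stayed within the interval of the reported ratio, 5 moved beyond it and 1, reported as at least 2-fold, reversed; in all 3 changed sign. Those that moved were all kept cells thinned to 1000 UMIs (-0.17) and 2000 UMIs (-0.073), monocyte-like cells at resolution 2.0 (-1.28, a cluster of 148 and 120 cells without the cDC1-led ones, which also changed sign) and at 1000 UMIs (1.79), and Kupffer cell-like cells at 1000 UMIs (1.97). Kupffer cell-like cells called by 3 of the 8 other genes changed sign within the interval (-0.14). The LSEC-like share reversed with doublets kept (-0.99), where the class held 828 and 2468 cells; its cause was not tested. Of the ratios of single genes, 432 stayed, 69 moved and 13, all reported as at least 2-fold, reversed; 56 changed sign in all. The reversed ones in Kupffer cell-like cells were Birc5 as a mean over cells (-0.67) and at 1000 UMIs (-0.45), and Ccnb2 as a mean over cells (-0.61) and in marker-strict cells (-0.11). In LSEC-like cells with doublets kept, Mki67 (-0.86), Top2a (-1.03), Birc5 (-0.70), Ccnb2 (-0.92), Stmn1 (-1.32) and Rrm2 (-1.57) reversed, and with cell-cycle genes used in clustering Cdk1 (-0.32), Birc5 (-0.89) and Rrm2 (-0.078). With a minimum of 10 in place of 50 UMIs more genes are compared, and those 2-fold higher and lower went from 767 to 1327 and from 140 to 546 in lymphocyte-like cells, from 403 to 988 and 243 to 612 in monocyte-like cells, from 276 to 1230 and 77 to 554 in Kupffer cell-like cells, and from 622 to 1114 and 127 to 456 in LSEC-like cells. No paired analysis was possible because each group has 1 library.

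The main limits are the 1 library per group, the lower depth and the larger share of hepatocyte RNA in the Hep-ADKTg library, and the small number of cycling cells per class, which in Kupffer cell-like cells was 6 and 16. Low transcripts in shallow cells were not detectable at this depth.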
